A study of Mus musculus with 9 samples.

Results

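Replication-dependent histone genes were described in mouse hearts across 3 genotypes. The members were the probe sets to which the array annotation gave a single gene symbol of the replication-dependent histone type (older names beginning with Hist1h, Hist2h, Hist3h or Hist4h, newer names such as H2ac, H2bc, H3c or H4c with a number). This rule found 22 probe sets of 21 genes among the 33793 probe sets on the array. Updating the symbols neither added nor removed a member. RNA came from whole hearts of 2 month old mice, 1 heart per array, and the study followed the question whether hearts of Alport mice change when osteopontin is also absent. The groups were 3 Col4a3-/-OPN-/- hearts, which lack both the alpha3 chain of collagen IV and osteopontin, 3 Col4a3-/- hearts, which lack the alpha3 chain and keep osteopontin, and 3 wild type hearts. Both mutant groups thus carry the loss of Col4a3, the lesion of a mouse model of Alport syndrome, a disease of basement membranes. The labels give neither strain, nor sex, nor how the alleles were made.

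Replication-dependent histone genes encode the H2A, H2B, H3, H4 and linker H1 proteins that package newly made DNA, and they lie in clusters with many near-identical copies. Their mRNAs are made mainly in S phase, end in a conserved stem-loop instead of a poly(A) tail, and are bound there by the stem-loop binding protein Slbp. Adult heart muscle cells rarely replicate DNA, whereas endothelial cells, fibroblasts and immune cells of the heart can divide, and replacement histones, whose mRNAs carry poly(A) tails, supply chromatin outside S phase.

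The upstream regions of 6 members are printed because their genes carry the results below: H4c12, H2ac10, H2bc3 and H2bc18 for their differences between genotypes, and the divergent testis pair H2ac1 and H2bc1 because the start sites lie only 280 bases apart and 1 of the probe sets was dim. Each is the 150 bases before the start of the gene in RefSeq (build GRCm38.p6), written 5′ to 3′ along the gene. The windows were chr13:21750554-21750703 on the minus strand for H4c12, chr13:23533725-23533874 on the plus strand for H2ac10, chr13:23746584-23746733 on the plus strand for H2bc3, chr3:96269550-96269699 on the plus strand for H2bc18, chr13:23934287-23934436 on the plus strand for H2ac1 and chr13:23934157-23934306 on the minus strand for H2bc1. Capitals mark 3 motifs searched on both strands: CCAAT, the box bound by the factor NF-Y, then TATAAA, a form of the TATA box, and ATTTGCAT, the octamer bound by Oct1 and known from H2B promoters. A motif on the other strand appears as its reverse complement.
H4c12: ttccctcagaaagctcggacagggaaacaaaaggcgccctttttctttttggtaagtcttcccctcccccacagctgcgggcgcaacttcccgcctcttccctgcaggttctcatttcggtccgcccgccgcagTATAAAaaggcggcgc
H2ac10: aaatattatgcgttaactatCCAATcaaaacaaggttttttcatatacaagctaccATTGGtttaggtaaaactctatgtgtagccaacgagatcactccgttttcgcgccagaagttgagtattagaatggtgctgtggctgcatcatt
H2bc3: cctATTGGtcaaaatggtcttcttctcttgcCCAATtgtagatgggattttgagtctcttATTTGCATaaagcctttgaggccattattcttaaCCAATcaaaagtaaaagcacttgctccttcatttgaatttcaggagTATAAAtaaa
H2bc18: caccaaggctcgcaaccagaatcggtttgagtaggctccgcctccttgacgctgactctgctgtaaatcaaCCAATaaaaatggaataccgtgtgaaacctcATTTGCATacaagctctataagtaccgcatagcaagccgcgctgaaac
H2ac1: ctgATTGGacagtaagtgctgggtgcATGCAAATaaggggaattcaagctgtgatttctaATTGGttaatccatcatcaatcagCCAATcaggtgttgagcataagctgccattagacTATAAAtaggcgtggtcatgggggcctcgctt
H2bc1: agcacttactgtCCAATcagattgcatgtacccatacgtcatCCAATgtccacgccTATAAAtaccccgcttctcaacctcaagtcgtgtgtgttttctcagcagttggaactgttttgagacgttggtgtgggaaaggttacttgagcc
RefSeq windows were found for 19 of the 21 genes, and not for H2bc21 and H4c14. H2bc21, with the largest log2 difference of a member below (0.74), could thus not be printed. The window of H4c8, also not printed, held none of the 3 motifs. CCAAT stood in 14 of the 19 windows (73.7%), against 24.5% of 32851 windows of the same length from all genes. It was present in 6 of 6 H2A windows and 7 of 7 H2B windows, and in 1 of 6 H4 windows. TATAAA stood in 8 of 19 (42.1%), against 7.6% of all windows. The octamer stood in 5 of 19 (26.3%), against 1.0% of all windows, and 4 of these 5 belonged to H2B genes. Motifs could overlap each other, divergent genes share part of their windows, and a missing match says only that these letters are not in this window. Among the 8 windows of genes that were tested, CCAAT stood in 5, TATAAA in 5 and the octamer in 3, and among the 11 windows of dim genes the counts were 9, 3 and 2.

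Several features of the arrays bear on every value below. Pairs of arrays correlated at 0.936 to 0.986, and Col4a3-/- replicate 3 stood apart with a mean correlation of 0.943, against 0.965 to 0.977 for the other hearts. The Col4a3 probe set was dim in the series, with log2 signals of 5.17, 4.87 and 5.26 in Col4a3-/-OPN-/- hearts, 5.27, 4.96 and 5.19 in Col4a3-/- hearts, and 5.07, 5.31 and 5.52 in wild type hearts. The osteopontin gene Spp1 had no probe set annotated with its symbol alone, and probe sets with several symbols or none were not searched. The genotypes were thus not checked here. All 8 cardiomyocyte markers were above the dim threshold, while 3 of 3 B cell markers and 5 of 6 neutrophil markers were dim. Xist was at 8.56 in Col4a3-/-OPN-/- replicate 2 and at 7.59 and 8.50 in Col4a3-/- replicates 1 and 3, the hearts with the lowest signal of Y-linked Eif2s3y (4.60 to 4.75), so that sex differed within both mutant groups. The median deviation of the 4 sex markers, mostly Y-linked, was -1.46, -1.38 and -1.57 in these hearts. It was 0.80, 0.62 and 0.68 in wild type hearts, so no wild type heart was of this kind. The mix of sexes thus also differed between groups, and genotype is partly confounded with sex in every comparison. Airway and brown fat markers were highest in Col4a3-/- replicate 2, with a log2 of the summed signal of 12.29 and 11.78. The airway and lung sum was 10.02 and 9.75 in Col4a3-/-OPN-/- replicates 1 and 3, against 7.17 to 7.72 in the remaining 6 hearts. The labels name a labelling reagent made for small RNA although the probe annotation is that of a whole-transcript gene array, so how these tail-less mRNAs were labelled is uncertain.

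Most of the histone probe sets gave little signal in these hearts. A probe set was called dim when its mean log2 signal over the 9 hearts was at or below 5.21, the median of all probe sets, and 13 of the 22 members were dim. The 9 that remained for testing were of 9 genes, 3 each of H2A, H2B and H4. No H3 gene and no H1 gene was a member, because H3 probe sets carried several symbols and H1 genes are named H1f in the annotation. On chromosome 13, where the large histone cluster lies, 6 of 16 probe sets were above the threshold, and on chromosome 3, where the smaller cluster lies, 3 of 6 were. The dim members ranged from 4.29 for H2ac12 to 5.08 for H2bc12. Fitted among all probe sets with 1 symbol, without the filter, none of the 13 dim members was called by limma, against 0.017% in Col4a3-/-OPN-/- against Col4a3-/- hearts and 0% in each comparison with wild type hearts. In each comparison 1 dim member had an unadjusted p under 0.05: H2bc14 in Col4a3-/-OPN-/- against Col4a3-/- hearts (11.6% of all), H4c14 in Col4a3-/-OPN-/- against wild type hearts (4.14% of all) and H2bc12 in Col4a3-/- against wild type hearts (7.08% of all). Just inside the threshold were H2bc18 at 5.29 and H4c8 at 5.38, and just outside it were H2bc12 at 5.08 and a probe set of H2ac21 at 5.01. Of the genes known for expression in testis, H2ac1 (a testis H2A) averaged 5.43, while H2bc1 (a testis H2B) averaged 4.30 and the testis linker histone H1f6 4.52, both dim. The signal of a probe set depends on its own probes, so these values do not rank the genes by amount of mRNA.

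**Figure D1:**
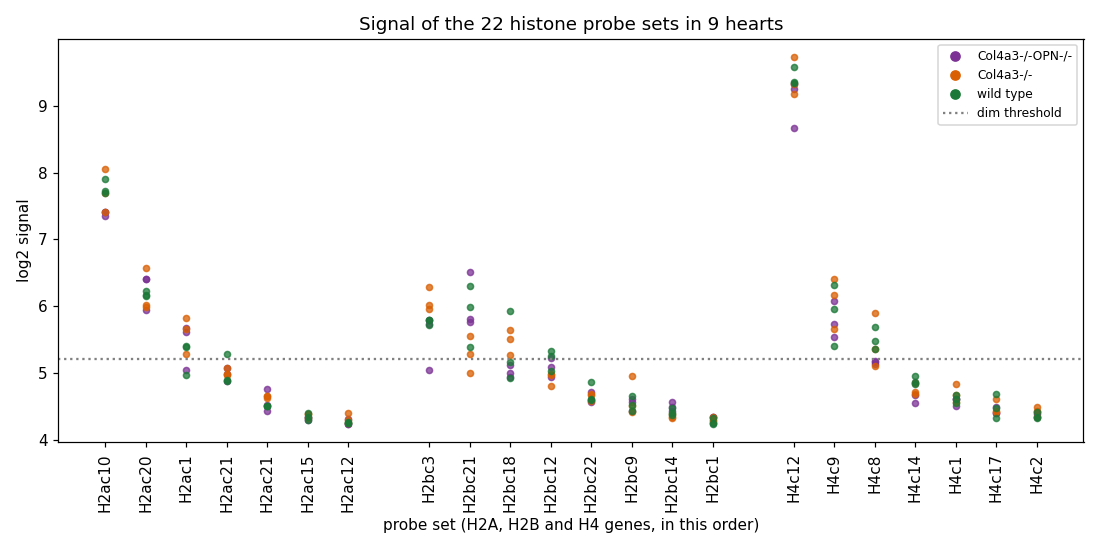
Log2 signal (vertical axis) of the 22 histone probe sets (horizontal axis, H2A, H2B and H4 genes) in 3 Col4a3-/-OPN-/- hearts, 3 Col4a3-/- hearts and 3 wild type hearts, 1 point per heart, with the dim threshold of 5.21 as a dotted line. H4c12 and H2ac10 lie well above the threshold, and 13 probe sets have their mean at or below it.

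Among the H2A genes, H2ac10 (probe set 17285819) lay furthest above the dim threshold. Its log2 signal was 7.42, 7.41 and 7.34 in Col4a3-/-OPN-/- hearts, 7.69, 8.06 and 7.41 in Col4a3-/- hearts, and 7.90, 7.69 and 7.73 in wild type hearts. All 3 Col4a3-/-OPN-/- hearts lay below all wild type hearts, and they overlapped the Col4a3-/- hearts only through replicate 3 of that group. H2ac20 was at 5.95, 6.40 and 6.41 in Col4a3-/-OPN-/- hearts, 6.57, 6.03 and 6.00 in Col4a3-/- hearts, and 6.17, 6.23 and 6.16 in wild type hearts. The wild type hearts lay close together within the range of both mutant groups. The testis gene H2ac1 was at 5.06, 5.62 and 5.67 in Col4a3-/-OPN-/- hearts, 5.82, 5.28 and 5.67 in Col4a3-/- hearts, and 5.39, 4.98 and 5.41 in wild type hearts. Its signals lay on both sides of the dim threshold, and every pair of groups overlapped.

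Among the H2B genes, H2bc3 (probe set 17285863) was at 5.74, 5.05 and 5.79 in Col4a3-/-OPN-/- hearts, 6.02, 6.29 and 5.97 in Col4a3-/- hearts, and 5.79, 5.72 and 5.80 in wild type hearts. The Col4a3-/- hearts were the 3 highest of the 9. H2bc21 (probe set 17400541), known as H2be, an H2B variant gene of olfactory neurons in the mouse, was at 5.77, 6.51 and 5.82 in Col4a3-/-OPN-/- hearts, 5.56, 5.30 and 5.01 in Col4a3-/- hearts, and 5.39, 6.30 and 5.99 in wild type hearts. Here the order was the opposite, with every Col4a3-/- heart below every Col4a3-/-OPN-/- heart and 1 wild type heart among the Col4a3-/- values. H2bc18 was at 4.95, 5.01 and 5.12 in Col4a3-/-OPN-/- hearts, 5.52, 5.65 and 5.27 in Col4a3-/- hearts, and 5.93, 4.94 and 5.17 in wild type hearts. The Col4a3-/-OPN-/- mean of 5.03 was below the dim threshold, so the size of its differences is uncertain.

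The H4 genes encode the same core histone. H4c12 (probe set 17290999) was at 8.66, 9.25 and 9.32 in Col4a3-/-OPN-/- hearts, 9.72, 9.32 and 9.17 in Col4a3-/- hearts, and 9.34, 9.35 and 9.57 in wild type hearts. The Col4a3-/-OPN-/- hearts lay below the wild type hearts, with the nearest hearts almost level, and replicate 1 was the lowest of all 9. H4c9 was at 5.55, 5.74 and 6.09 in Col4a3-/-OPN-/- hearts, 6.40, 5.67 and 6.18 in Col4a3-/- hearts, and 5.97, 6.32 and 5.40 in wild type hearts, with overlap throughout. H4c8 was at 5.17, 5.15 and 5.19 in Col4a3-/-OPN-/- hearts, 5.91, 5.10 and 5.36 in Col4a3-/- hearts, and 5.49, 5.69 and 5.36 in wild type hearts. All 3 Col4a3-/-OPN-/- hearts were below the wild type hearts and, at a mean of 5.17, below the dim threshold.

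**Figure D2:**
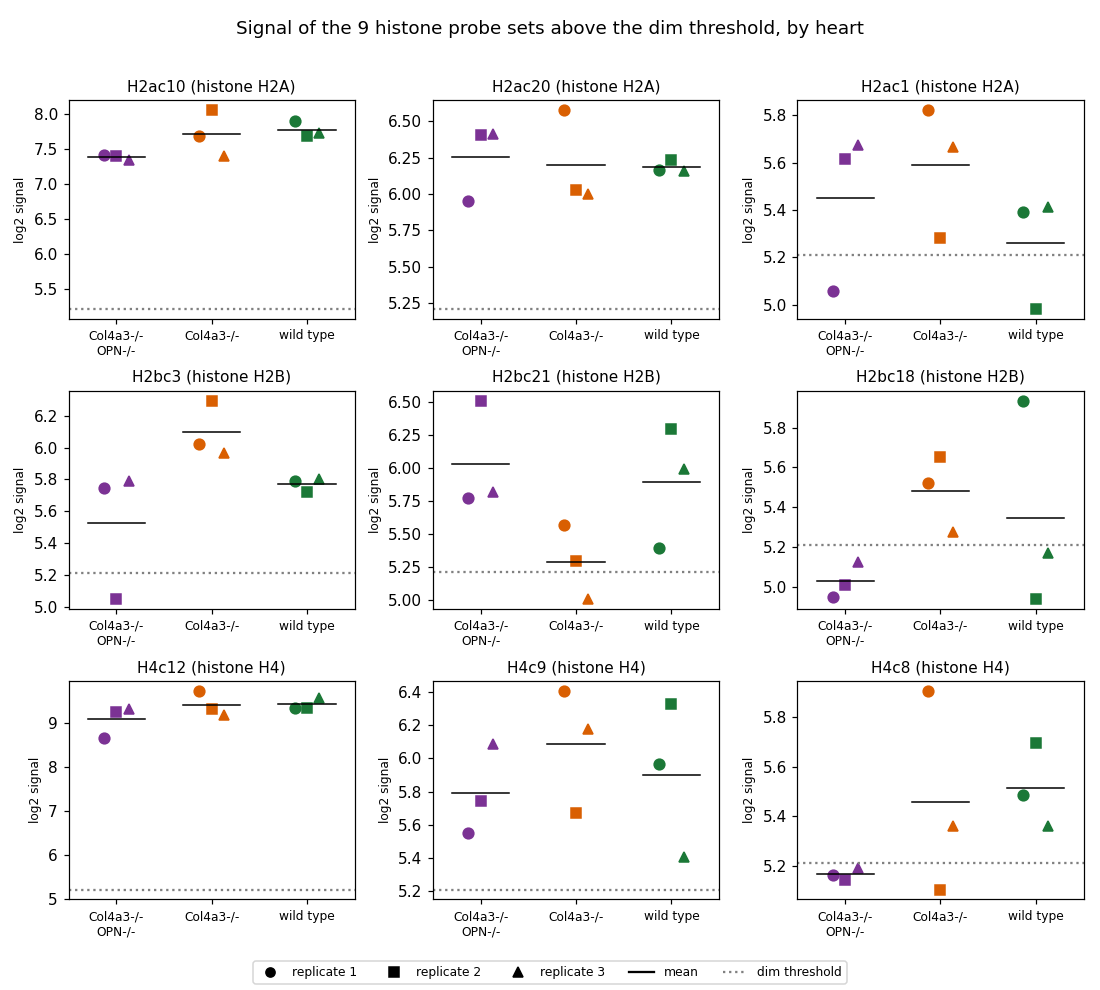
Log2 signal (vertical axes, which do not start at 0 and differ between panels) of the 9 tested histone probe sets in Col4a3-/-OPN-/- hearts, Col4a3-/- hearts and wild type hearts. Each point is 1 heart, shaped by replicate number, the black line is the mean of 3 hearts, and the dotted line is the dim threshold. H2bc21 is lowest in Col4a3-/- hearts, whereas H2bc3 is highest there.

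Adding the loss of osteopontin to the loss of Col4a3 went with a lower signal of most tested histone genes, by differences of which none passed the test. In Col4a3-/-OPN-/- against Col4a3-/- hearts, 7 of the 9 members had a negative log2 difference, against 42.3% of all 13650 probe sets tested. The median difference of the 9 was -0.29, against 0.04 over all tested. Among these 7, H2bc18 and H4c8 averaged 5.03 and 5.17 in Col4a3-/-OPN-/- hearts, below the dim threshold. They passed the filter only through the other genotypes, which favours a negative difference, so these 2 are no support for a lower signal. None of the 9 passed limma's test at a Benjamini-Hochberg adjusted p under 0.05, against 0.044% of all tested, and 2 had an unadjusted p under 0.05 (13.6% of all tested). By position, 6 of 6 members on chromosome 13 were lower, between -0.57 for H2bc3 and -0.14 for H2ac1. H2ac1 reached 0.055 with 1 heart left out. Of the 3 members on chromosome 3, 1 was lower, and these are too few to compare the positions. A probe set shared by H2ac18, H2ac19 and H2ac20, the last a chromosome 3 member, differed by -0.57. H2bc3 averaged 5.53 ± 0.42 in Col4a3-/-OPN-/- hearts and 6.09 ± 0.17 in Col4a3-/- hearts (SD, n = 3 each), a log2 difference of -0.57 (SE 0.183, adjusted p = 0.262 in limma), which was -0.33 without Col4a3-/-OPN-/- replicate 2. H2bc21 averaged 6.03 ± 0.41 in Col4a3-/-OPN-/- hearts and 5.29 ± 0.28 in Col4a3-/- hearts, and the difference was 0.74 on the log2 scale (SE 0.254, limma adjusted p = 0.282), the only member well above 0. H2bc18 differed by -0.45 (SE 0.211, limma adjusted p = 0.380), H2ac10 by -0.33 (SE 0.165, limma adjusted p = 0.420) and H4c12 by -0.33 (SE 0.195, limma adjusted p = 0.499). H2ac10 was at -0.16 without Col4a3-/- replicate 2, and H4c12 at -0.12 without Col4a3-/-OPN-/- replicate 1 and -0.17 without Col4a3-/- replicate 1. H4c9 and H4c8 each differed by -0.29, and H2ac20 by 0.06. Without Col4a3-/- replicate 1, H4c8 was at -0.065 and H4c9 at -0.13, with array weights they were at -0.17 and -0.13, and H4c9 was at -0.18 with the signal of the Y-linked gene Eif2s3y as a covariate. H4c8 was at -0.47 without Col4a3-/- replicate 2, and H4c9 at -0.50 without that heart, -0.17 without Col4a3-/-OPN-/- replicate 1 and -0.44 without Col4a3-/-OPN-/- replicate 3. The groups did not overlap for 3 members, higher for H2bc21 and lower for H2bc3 and H2bc18, while 16.5% of all tested probe sets did not overlap. The median moved to -0.13 without Col4a3-/- replicate 1 and to -0.17 without Col4a3-/-OPN-/- replicate 1, and to -0.17 with array weights, and it stayed negative in each case. In whole hearts, fewer cells of a type and less RNA per cell cannot be told apart.

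Markers of other cell types also differed in this comparison. All 4 smooth muscle markers and all 5 atrial markers had positive log2 differences, against 7875 of all 13650 tested. Of the smooth muscle markers 1 was called by limma, against 6 of all 13650 tested. The log2 of the summed smooth muscle signal was 10.92 to 11.17 in Col4a3-/-OPN-/- hearts and 9.91 to 10.85 in Col4a3-/- hearts, against 11.27 to 11.69 in wild type hearts. The summed atrial signal was 13.60 to 13.76 in Col4a3-/-OPN-/- hearts and 12.82 to 13.71 in Col4a3-/- hearts, against 13.82 to 13.93 in wild type hearts. Of the 4 platelet markers, 2 were higher without overlap, against 1375 of all 13650 tested. Among these 2, 1 was called by limma (log2 difference 1.56, adjusted p = 0.0258). The summed platelet signal was 8.39 to 8.69 in Col4a3-/-OPN-/- hearts and 7.91 to 8.13 in Col4a3-/- hearts, against 7.74 to 8.06 in wild type hearts. Of the 9 macrophage markers, 6 had negative log2 differences, down to -1.05, against 5775 of all 13650 tested, and none was called by limma. The summed macrophage signal was 11.03 to 11.40 in Col4a3-/-OPN-/- hearts and 11.30 to 11.70 in Col4a3-/- hearts, against 11.09 to 11.24 in wild type hearts. Their part in the histone differences was not tested. With the signal of Eif2s3y, which follows the sex of the heart, as a covariate, the median histone difference was -0.19, with 0 members called.

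Against wild type hearts, the Col4a3-/-OPN-/- hearts had lower signals of H2ac10, H4c8 and H4c12 in every heart, again short of the test's threshold. Of the 9 members, 6 had a negative log2 difference, against 46.9% of all tested, and the median was -0.24, against 0.01 over all tested. H4c8 and H2bc18 are among these 6. Both passed the filter only through the genotypes other than Col4a3-/-OPN-/-, so they are no support for a lower signal here either. None passed limma's test, as for 0% of all tested, and 1 had an unadjusted p under 0.05, against 3.68% of all tested. H2ac10 averaged 7.39 ± 0.04 in Col4a3-/-OPN-/- hearts and 7.78 ± 0.11 in wild type hearts (SD, n = 3 each), a log2 difference of -0.38 (SE 0.165, unadjusted p = 0.0395 and adjusted p = 0.999 in limma). H4c8 averaged 5.17 ± 0.02 in Col4a3-/-OPN-/- hearts and 5.51 ± 0.17 in wild type hearts, a difference of -0.35 whose size is uncertain near the dim threshold. H4c12 differed by -0.34 (SE 0.195, limma adjusted p = 0.999), and by -0.13 without Col4a3-/-OPN-/- replicate 1. These 3 members were the ones whose groups did not overlap, all lower, while 13.2% of all tested probe sets did not overlap in either direction and 5.65% were lower without overlap. H2bc18 and H2bc3 differed by -0.32 and -0.24, and H2ac1 by 0.19. These values depended on single hearts: H2bc18 was at -0.025 without wild type replicate 1 and -0.52 without wild type replicate 2, H2bc3 at -0.0030 without Col4a3-/-OPN-/- replicate 2 and -0.37 without Col4a3-/-OPN-/- replicate 3. H2ac1 ran from 0.048 without wild type replicate 2 to 0.38 without Col4a3-/-OPN-/- replicate 1. With the Eif2s3y covariate, H2bc3 was at -0.056 and H2ac1 at 0.054. The median moved to -0.13 without Col4a3-/-OPN-/- replicate 1, to -0.10 without Col4a3-/-OPN-/- replicate 2 and to -0.11 without wild type replicate 1. In this comparison 2 of the 4 platelet markers were higher without overlap, against 1030 of all 13650 tested. Platelet log2 differences reached 1.34, and none of the 4 markers was called by limma (smallest adjusted p = 0.167). Only 2 erythroid markers were measured, and 1 of them was dim. The 1 tested erythroid marker was lower without overlap at -0.35 (5.65% of all tested were lower without overlap) and was not called. Its signal was near the dim threshold, so the size of this difference is uncertain. The summed erythroid signal was 5.92 to 5.97 in Col4a3-/-OPN-/- hearts and 6.05 to 6.09 in Col4a3-/- hearts, against 6.11 to 6.26 in wild type hearts. Their part in these differences was not tested.

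With the loss of Col4a3 alone the histone genes differed in both directions. In Col4a3-/- against wild type hearts, 4 of 9 members had a negative log2 difference, against 55% of all tested, and the median was 0.01, against -0.02 over all tested. None passed limma's test, as for 0% of all tested, and 1 had an unadjusted p under 0.05, against 8.35% of all tested. That member was H2bc21, which averaged 5.29 ± 0.28 in Col4a3-/- hearts and 5.90 ± 0.46 in wild type hearts (SD, n = 3 each), a log2 difference of -0.61 (SE 0.254, adjusted p = 0.564 in limma) with overlapping hearts. H2ac1 differed by 0.33 (SE 0.192, limma adjusted p = 0.671) and H2bc3 by 0.32 (SE 0.183, limma adjusted p = 0.660). With the Eif2s3y covariate H2ac1 was at 0.056 and H2bc3 at 0.70, and H2ac1 was at 0.19 with array weights, 0.21 without Col4a3-/- replicate 1 and 0.19 without wild type replicate 2. H2bc3 was the only member whose groups did not overlap, against 12.5% of all tested. H4c12, H2ac10 and H4c8 differed by -0.02, -0.06 and -0.06. All 4 smooth muscle markers were lower without overlap, against 1078 of all 13650 tested. All 5 atrial markers had negative log2 differences, against 55% of all tested, and 3 of them did not overlap, against the same 1078. None of either list was called by limma (smallest adjusted p = 0.0593). Of the 9 macrophage markers, 6 had positive log2 differences, against 6138 of all 13650 tested. Among them 2 were higher without overlap, against 625 of all 13650 tested, and no macrophage marker was called. Their part in the histone differences was not tested here either. The 3 comparisons share hearts pairwise, so their values stand side by side and are not independent of each other. A moderated F-test for any difference among the genotypes called none of the 9 members, against 0.0147% of all tested, gave 2 an unadjusted p under 0.05, against 9.3% of all tested, and had its smallest adjusted p, 0.489, at H2bc21.

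**Figure D3:**
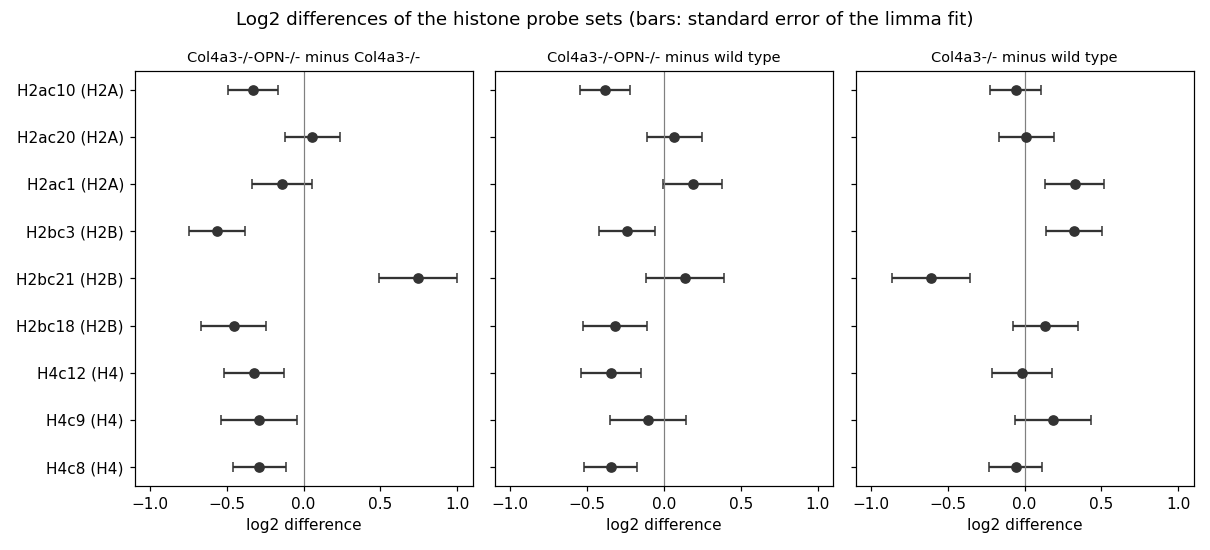
Log2 difference (horizontal axes) of the 9 tested histone probe sets for Col4a3-/-OPN-/- minus Col4a3-/-, Col4a3-/-OPN-/- minus wild type and Col4a3-/- minus wild type. Points are differences of means of 3 hearts and bars are 1 standard error of the limma fit. In the left panel 7 of 9 points lie left of 0, and H2bc21 lies on the other side at 0.74.

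Histone genes varied more between hearts of the same genotype than most probe sets did. Their median SD within a genotype was 0.277, against 0.181 over all tested, and their median range over the 9 hearts was 0.998, against 0.595. The standard error of a log2 difference ran from 0.165 to 0.254 for the members, against a median of 0.149 for all tested. Ranges were widest for H2bc21 (1.50) and H2bc3 (1.24). The highest of the 9 hearts was a Col4a3-/- heart for 7 of the 9 members. The lowest was a Col4a3-/-OPN-/- heart for 4, a wild type heart for 3 and a Col4a3-/- heart for 2. Such counts were not made over all tested probe sets, so they cannot be read as particular to histone genes. Taking the median deviation of the 9 members from their means in each heart, Col4a3-/-OPN-/- hearts were at -0.26, -0.18 and 0.02, Col4a3-/- hearts at 0.36, -0.15 and -0.02, and wild type hearts at 0.04, 0.05 and -0.02. Replicate 1 was the only Col4a3-/- heart above 0, and replicates 1 and 2 were the Col4a3-/-OPN-/- hearts below it.

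Another 37 probe sets carried the symbols of several histone genes and were not members. Of these, 12 were above the dim threshold: 5 H2A, 5 H2B and 2 H3. They share genes, and may share probes, with each other and with members, so they are not independent readings. One pair of H2A probe sets for H2ac18, H2ac19 and H2ac20 differed by at most 0.0018 in a heart. Another pair, for 12 H2A genes, differed by at most 0.030. The counts below include both probe sets of each pair, so nearly the same signal is counted again. In contrast, 2 H2B probe sets with the symbols H2bc4, H2bc6 and H2bc8 averaged 10.63 and 5.35. Among all 16896 probe sets above the threshold, none of the 12 was called in any comparison, against 0.0473% in Col4a3-/-OPN-/- against Col4a3-/- hearts, 0.0118% in Col4a3-/-OPN-/- against wild type hearts and 0% in Col4a3-/- against wild type hearts. In Col4a3-/-OPN-/- against Col4a3-/- hearts, 11 of 12 had a negative log2 difference (46.5% of all), 7 had an unadjusted p under 0.05 and were lower (6.72% of all), 1 had such a p and was higher (7.78% of all), and 7 were lower without overlap (8.16% of all). Their median difference was -0.36 and their smallest limma adjusted p was 0.164. In Col4a3-/-OPN-/- against wild type hearts all 12 were negative (49.2% of all) with a median of -0.19 (-0.13 without Col4a3-/-OPN-/- replicate 1), 1 had an unadjusted p under 0.05 (2.21% of all), and 5 were lower without overlap (6.24% of all). In Col4a3-/- against wild type hearts 10 of 12 were positive (47.8% of all) with a median of 0.14 (0.23 without Col4a3-/- replicate 3), and 3 had an unadjusted p under 0.05, 2 higher (3.05% of all) and 1 lower (5.26% of all).

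The probe sets for several H2A and H3 genes showed the widest gaps. The H2ac18, H2ac19 and H2ac20 probe set was at 9.83, 9.98 and 9.98 in Col4a3-/-OPN-/- hearts, 10.69, 10.44 and 10.38 in Col4a3-/- hearts, and 10.42, 9.79 and 10.03 in wild type hearts. Every Col4a3-/- heart lay above every Col4a3-/-OPN-/- heart, at a difference of -0.57 on the log2 scale (SE 0.158; adjusted p = 0.181 in limma), whereas the probe set of H2ac20 alone differed by 0.06. A probe set for H3c1, H3c8, H3c10 and H3c11 was at 5.50, 5.20 and 5.44 in Col4a3-/-OPN-/- hearts, 6.14, 5.98 and 5.83 in Col4a3-/- hearts, and 5.57, 5.74 and 6.16 in wild type hearts. Its difference between Col4a3-/-OPN-/- and Col4a3-/- hearts was -0.60 (SE 0.159, limma adjusted p = 0.164), and all Col4a3-/-OPN-/- hearts were the lowest. The exception to the direction was a probe set for the linker gene H1f4 and 3 H2B genes, which differed by 0.33. In each heart, the median deviation of the 12 was -0.28, -0.16 and -0.10 in Col4a3-/-OPN-/- hearts, 0.23, 0.26 and 0.05 in Col4a3-/- hearts, and 0.17, -0.03 and 0.01 in wild type hearts, so that all 3 Col4a3-/-OPN-/- hearts stood below the other 6.

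**Figure D4:**
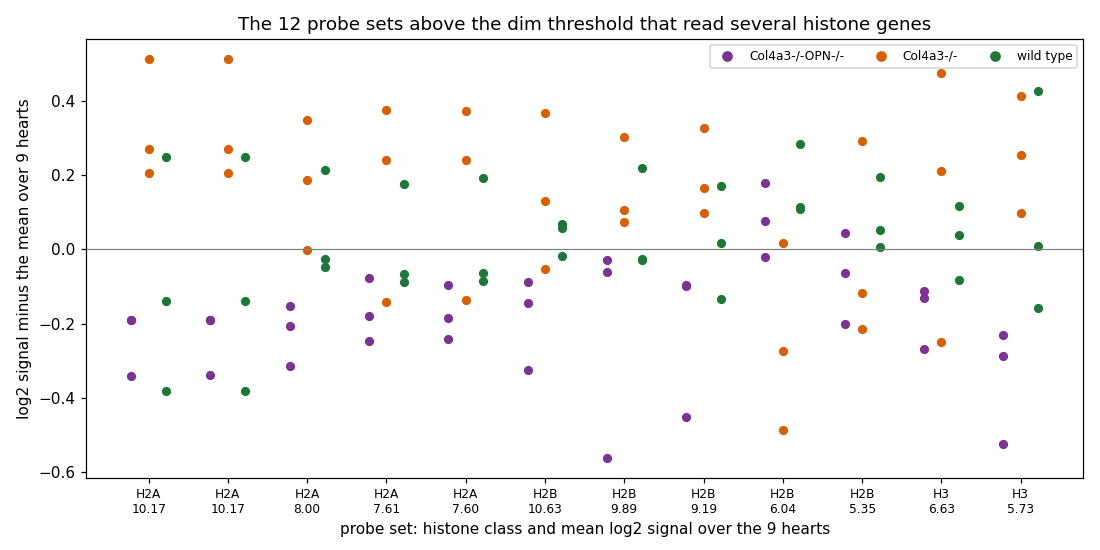
Log2 signal minus the mean over 9 hearts (vertical axis) of the 12 probe sets above the dim threshold that carry several histone gene symbols (horizontal axis, with histone class and mean log2 signal), in Col4a3-/-OPN-/- hearts, Col4a3-/- hearts and wild type hearts, 1 point per heart. In 7 probe sets all Col4a3-/-OPN-/- points lie below all Col4a3-/- points.

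Linker histone genes with a single symbol had 5 probe sets, and only H1f2 was above the threshold. H1f2 was at 7.61, 7.86 and 8.02 in Col4a3-/-OPN-/- hearts, 7.70, 7.52 and 8.11 in Col4a3-/- hearts, and 7.86, 7.80 and 7.28 in wild type hearts. Its groups overlapped in every comparison, with log2 differences of 0.05 between Col4a3-/-OPN-/- and Col4a3-/- hearts, 0.18 between Col4a3-/-OPN-/- and wild type hearts and 0.13 between Col4a3-/- and wild type hearts.

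Genes that make and process histone mRNA had median differences near 0. Of 14 tested genes of this list, none was called by limma in any comparison, and 2, 0 and 1 had an unadjusted p under 0.05 in Col4a3-/-OPN-/- against Col4a3-/-, Col4a3-/-OPN-/- against wild type and Col4a3-/- against wild type hearts. In the same order, 13.6%, 3.68% and 8.35% of all tested probe sets had such a p. The median log2 differences of the list, again in this order, were 0.05, -0.02 and -0.01. Slbp, whose protein binds the histone stem-loop, was at 6.63, 6.63 and 6.76 in Col4a3-/-OPN-/- hearts, 7.12, 6.81 and 7.04 in Col4a3-/- hearts, and 6.55, 6.66 and 6.86 in wild type hearts. Every Col4a3-/-OPN-/- heart lay below every Col4a3-/- heart, as for H2bc3, at a difference of -0.32 on the log2 scale (adjusted p = 0.356 in limma). Npat, a cyclin E target that activates histone gene transcription, was at 6.99, 6.91 and 7.08 in Col4a3-/-OPN-/- hearts, 6.61, 6.39 and 7.30 in Col4a3-/- hearts, and 6.83, 6.90 and 6.88 in wild type hearts. Its Col4a3-/-OPN-/- hearts lay just above the wild type hearts and within the Col4a3-/- range. Against wild type hearts, 4 of the 14 genes, Npat among them, were higher without overlap in Col4a3-/-OPN-/- hearts, against 1030 of all 13650 tested. In the other direction, 1 of the 14 was lower without overlap, against 771 of all 13650 tested. Gon4l differed by 0.33 between Col4a3-/-OPN-/- and Col4a3-/- hearts, and Eri1, an exonuclease that trims and degrades histone mRNA, by -0.42 between Col4a3-/- and wild type hearts.

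Replacement histones and chaperones gave no calls either. None of the 7 tested replacement histone genes was called by limma or had an unadjusted p under 0.05 in any comparison, and their median differences were 0.12 for Col4a3-/-OPN-/- against Col4a3-/-, -0.05 for Col4a3-/-OPN-/- against wild type and -0.24 for Col4a3-/- against wild type. H2ax, the H2A form that is phosphorylated at DNA breaks and whose gene also makes a replication-type mRNA, was at 7.27, 7.33 and 7.10 in Col4a3-/-OPN-/- hearts, 7.51, 7.76 and 7.36 in Col4a3-/- hearts, and 7.43, 7.64 and 7.41 in wild type hearts. All Col4a3-/-OPN-/- hearts lay below the other 6, by -0.31 against Col4a3-/- hearts and -0.26 against wild type hearts. Cenpa, the centromeric H3, differed by 0.39 between Col4a3-/-OPN-/- and Col4a3-/- hearts and by -0.44 between Col4a3-/- and wild type hearts, with overlap in both. Of 18 tested chaperone genes none was called by limma. In Col4a3-/-OPN-/- against Col4a3-/- hearts 1 had an unadjusted p under 0.05, against 13.6% of all tested, and in the other comparisons none had. Their median differences were 0.06, 0.05 and 0.03 for Col4a3-/-OPN-/- against Col4a3-/-, Col4a3-/-OPN-/- against wild type and Col4a3-/- against wild type. The lowest in the first of these was Nap1l1 at -0.33, and the highest was Atrx at 0.27.

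Markers of S phase and mitosis also had median differences near 0. None of 37 S phase genes was called by limma, with 5, 1 and 0 at an unadjusted p under 0.05 and medians of -0.05, 0.003 and 0.01 in Col4a3-/-OPN-/- against Col4a3-/-, Col4a3-/-OPN-/- against wild type and Col4a3-/- against wild type hearts. In this order, 13.6%, 3.68% and 8.35% of all tested probe sets had such a p. Pcna, the sliding clamp of DNA polymerase, was at 7.77, 7.88 and 8.03 in Col4a3-/-OPN-/- hearts, 7.94, 7.73 and 8.39 in Col4a3-/- hearts, and 7.90, 7.99 and 7.77 in wild type hearts, with overlap throughout. Pold1, the catalytic subunit of DNA polymerase delta, differed by 0.48 between Col4a3-/-OPN-/- and Col4a3-/- hearts (limma adjusted p = 0.234), the highest of that list. Of 23 mitosis genes measured, 12 were dim, none of the 11 tested was called by limma, and 0, 0 and 1 had an unadjusted p under 0.05 in the same order of comparisons, with medians of -0.04, -0.04 and 0.01. Mki67, which marks cycling cells, was at 5.63, 5.27 and 5.33 in Col4a3-/-OPN-/- hearts, 5.16, 6.16 and 5.22 in Col4a3-/- hearts, and 5.66, 5.24 and 5.55 in wild type hearts. Its highest value was in Col4a3-/- replicate 2, which also had the highest signals of H2ac10 and H2bc3 and of the airway and brown fat markers. Whether these go together was not tested.

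**Figure D5:**
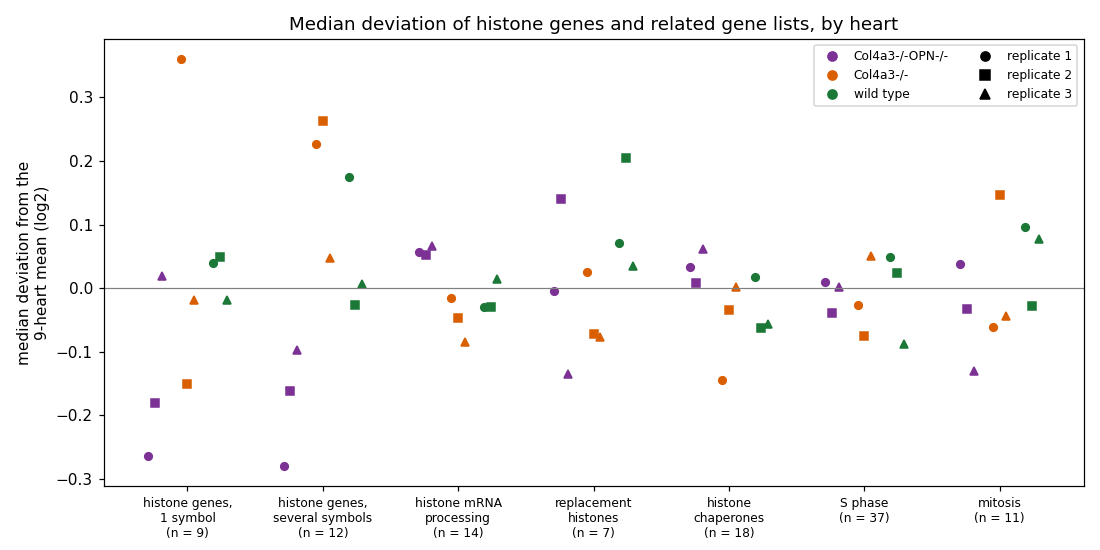
Median deviation from the 9-heart mean (vertical axis, log2) over the tested probe sets of each list (horizontal axis, n probe sets), 1 point per heart, coloured by genotype and shaped by replicate number. For the 12 probe sets with several histone symbols the Col4a3-/-OPN-/- hearts are the 3 lowest, while for S phase genes the genotypes are mixed.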

How the data were processed

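The deposited values were log2 signals per probe set made with RMA, per the submitters' processing notes, and no version is given in the sources used here. RMA corrects background and normalizes across arrays, so a difference is relative to the bulk of probe sets. Symbols came from the platform annotation, which gave 1 symbol to 23521 probe sets, several to 1814, and did not list 8458. The 13650 probe sets with 1 symbol and a mean log2 signal above 5.21 entered 1 limma fit (limma 3.58.1 in R 4.3.3, intensity trend) over the 9 hearts, with two-sided moderated tests and Benjamini-Hochberg adjustment at 0.05. Probe sets with several histone symbols were fitted among the 16896 above the threshold, and dim members without the filter. With 3 hearts a group the smallest exact permutation p would be 0.1, so no such test was run.

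The members and gene lists were chosen with earlier results of these data known. Every tested member was named. Dim members were named by their place near the threshold or testis expression, and H2ac12, H2bc14 and H4c14 after their values were seen. Other genes were the 2 highest and 2 lowest of a list in a comparison, of which a few are shown, with Slbp, Npat, Pcna and Mki67. The probe sets with several symbols and H2ax with its values were singled out after their values were seen. Promoter windows came from RefSeq (GRCm38.p6), 150 bases before the start. The labels number the hearts 1 to 3 in each genotype. Same-numbered hearts had correlations of their deviations from -0.19 to 0.23, and hearts with other numbers from -0.21 to 0.31. With 3 hearts a group these values can neither show nor exclude a pairing by number, and the main fit used none. The fit was tested on simulated data. The number of arrays limits the precision.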

Additional observations from a re-analysis of the deposited data

How the results depend on the processing

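No histone probe set was called by limma in any comparison or in the F-test under any setting run: renewed quantile normalization, arrays centred on their medians, no filter, a stricter filter, all probe sets above the threshold, no intensity trend, robust moderation, array weights, only the genotypes compared, the replicate block, Eif2s3y as a covariate, and each heart left out. The probe sets of several histone genes, refitted under settings chosen after seeing the data, also gave 0 calls throughout, and their median for Col4a3-/-OPN-/- minus Col4a3-/- ran from -0.48 to -0.30 with hearts left out. The median of the 9 members for that comparison ran from -0.37 to -0.13 with hearts left out, for Col4a3-/-OPN-/- minus wild type from -0.36 to -0.10, and for Col4a3-/- minus wild type from -0.04 to 0.11.

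Counts over all 13650 probe sets were small and unstable, and the cause was not tested. For Col4a3-/-OPN-/- minus Col4a3-/- the count was 6, and 2 with the stricter filter, 2 with array weights, 0 with the replicate block, 0 with the Eif2s3y covariate and 0 to 22 with hearts left out. For Col4a3-/-OPN-/- minus wild type it was 0, and 2 over all probe sets above the threshold, 1 with array weights, 2 with the Eif2s3y covariate and 0 to 3 with hearts left out. For Col4a3-/- minus wild type it was 0, and 1 with centred arrays, the stricter filter, no trend or robust moderation, 4 with the Eif2s3y covariate and 0 to 6 with hearts left out. The replicate block changed no call of a histone gene, and 0 remained the count of these.

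The log2 differences that changed sign lay between -0.14 and 0.19, none was called, and the cause was not tested. For Col4a3-/- minus wild type, H2ac20 was -0.010 with centred arrays, -0.033 with array weights and -0.18 with the Eif2s3y covariate, H2ac10 was 0.085 with array weights and 0.12 with the covariate, and H4c9 was -0.025 with the covariate. H2ac20 was -0.0074 for Col4a3-/-OPN-/- minus Col4a3-/- with renewed normalization, and for Col4a3-/-OPN-/- minus wild type H2bc21 was -0.0019 and H2ac20 -0.027 with the covariate. With hearts left out, Col4a3-/-OPN-/- minus Col4a3-/- ran from -0.046 to 0.24 for H2ac20 and from -0.29 to 0.055 for H2ac1. Col4a3-/-OPN-/- minus wild type ran from -0.010 to 0.22 for H2ac20, from -0.35 to 0.11 for H4c9 and from -0.11 to 0.34 for H2bc21. Col4a3-/- minus wild type ran from -0.18 to 0.11 for H2ac20, -0.23 to 0.10 for H2ac10, -0.070 to 0.43 for H2bc18, -0.062 to 0.40 for H4c9, -0.18 to 0.10 for H4c12 and -0.28 to 0.12 for H4c8. Members near the dim threshold have little signal over background, which limits what their differences can show.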
